A study of Mus musculus with 8 samples.

Results

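Genes of calmodulin-dependent kinases, protein kinase C, phospholipases C, diacylglycerol kinases, phospholipases A2 and calpains were examined in MC3T3-E1 subclone 14, a clonal line of mouse calvarial preosteoblasts. The members were chosen by gene symbol alone, as every row whose symbol starts with Camk, Prkc, Plc of the beta, delta, epsilon, gamma or eta class, Capn, Capns, Dgk or Pla2g, without Pla2g4a and without names ending in Rik, os or a pseudogene suffix, and no measured value enters that rule, although the families were picked with earlier results of these data known. This gave 66 genes of 20972 rows of the authors' deposited table, of which 48 carried an adjusted p-value and are called tested. The series' design text names human bone microvascular endothelial cells instead, and the sample labels, which match the mouse gene symbols, were followed. Cultures had received 10 µM Yoda1, an agonist of the calcium-permeable channel PIEZO1 supplied in DMSO, or DMSO alone as the solvent control, and RNA was taken at 24 h. Of 4 samples per group, the labels mark 1 in each as left out by the submitters because of batch variation, so that 3 remained in each group. The authors' deposited table holds 1 comparison and no values per library, so a gene is described by its mean normalized count over both groups, its log2 fold change (Yoda1 over DMSO, a direction taken from the table's name) and the standard error of that change, printed after ±. Nothing in the sample labels states that the replicates were separate cultures, and the p-values then measure only the spread between these libraries. In bulk RNA, fewer cells expressing a gene and less of its RNA per cell cannot be told apart.

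A rise in cytosolic calcium reaches its effectors by a few routes. Phospholipase C cleaves the membrane lipid PIP2 into IP3, which releases calcium from the endoplasmic reticulum, and diacylglycerol, which with calcium activates conventional protein kinase C and is removed by diacylglycerol kinases. Calcium bound to calmodulin switches on the CaM kinases, calpains are proteases whose classical forms calcium activates, and phospholipases A2 free fatty acids and lysophospholipids from membranes. The rule by symbol also takes in genes that calcium does not directly control, among them Prkci, an atypical protein kinase C, Pla2g6, Pla2g7 and Pla2g15, which need no calcium, Camkmt, a calmodulin methyltransferase, and Prkcsh, which encodes the beta subunit of glucosidase II and is no kinase.

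The promoters of 4 of the 5 genes that changed more than 2-fold are shown because these genes carry the largest differences, 2 lower (Capn6 and Plcb1) and 2 higher (Plcd3 and Pla2g7). Each run holds the 250 bases before a RefSeq start site on the gene's strand in build GRCm38.p6, a build other than the GRCm39 named for these data. They lie at chrX:143827413-143827662 on the minus strand for Capn6, chr2:134785914-134786163 on the plus strand for Plcb1, chr11:103101659-103101908 on the minus strand for Plcd3 and chr17:43568201-43568450 on the plus strand for Pla2g7. Capitals mark matches on either strand to a cyclic AMP response element (TGACGTCA), an AP-1 element (TGAGTCA or TGACTCA), a core NFAT sequence (TGGAAA) or a GC box (GGGCGG).
Capn6: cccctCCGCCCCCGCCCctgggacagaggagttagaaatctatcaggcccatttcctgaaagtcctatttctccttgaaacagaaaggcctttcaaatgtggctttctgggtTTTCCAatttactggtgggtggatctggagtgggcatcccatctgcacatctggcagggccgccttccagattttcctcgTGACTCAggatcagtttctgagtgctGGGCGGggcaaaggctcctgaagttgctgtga
Plcb1: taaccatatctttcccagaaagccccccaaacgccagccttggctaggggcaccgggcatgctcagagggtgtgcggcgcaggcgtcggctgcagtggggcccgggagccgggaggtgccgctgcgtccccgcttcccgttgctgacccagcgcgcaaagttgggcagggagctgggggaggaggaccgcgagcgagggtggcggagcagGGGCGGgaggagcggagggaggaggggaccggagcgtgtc
Plcd3: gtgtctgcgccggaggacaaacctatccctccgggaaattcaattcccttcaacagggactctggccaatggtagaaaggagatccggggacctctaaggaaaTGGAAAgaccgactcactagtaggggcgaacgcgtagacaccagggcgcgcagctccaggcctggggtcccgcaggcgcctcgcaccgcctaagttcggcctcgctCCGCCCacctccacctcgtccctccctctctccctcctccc
Pla2g7: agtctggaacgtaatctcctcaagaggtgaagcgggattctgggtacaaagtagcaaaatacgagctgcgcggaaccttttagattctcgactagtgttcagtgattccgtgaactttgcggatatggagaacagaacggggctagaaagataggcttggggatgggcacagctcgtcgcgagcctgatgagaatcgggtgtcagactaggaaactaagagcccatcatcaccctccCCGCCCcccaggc
Of these 4 windows, the AP-1 letters stood only in that of Capn6, 58 bases before the start, and the NFAT letters in those of Capn6 and Plcd3. Promoters were held for 56 of the 66 genes, untested ones among them, so shares of the 56 and of tested genes cover unlike sets. The AP-1 letters stood before 4 of these 56 genes (7.14%), against 4.30% of the 10149 tested genes with a promoter and 5.16% of all 27025 genes in the promoter table. The NFAT letters stood before 14 (25%), against 18.0% of tested genes and 20.9% of all genes. Among tested members they stood before 44.4% of 9 higher, 30% of 10 lower and 25% of 20 uncalled genes. A gene with several start sites counts if any window matches. By window the NFAT shares were 30.8% of 13, 25% of 12 and 25% of 28. The AP-1 letters stood before 0% of the 9 higher, 20% of the 10 lower and 5% of the 20 uncalled genes. These differences rest on few genes and were not tested. GC boxes stood before 53.6% of the 56 genes, against 35.4% of all genes. Among tested members they stood before 66.7% of the 9 higher, 80% of the 10 lower and 70% of the 20 uncalled genes. The share over all tested genes was 63.7%. The cyclic AMP element was found in 0 of the 75 windows, against 2.49% of the windows of tested genes and 1.55% of all 32851 windows. A match is a string of letters and no measured site.

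The labelled cell type was checked against its markers, and several of these changed with Yoda1. All 8 osteoblast markers were tested, with means from 4.70 for Bglap to 279469 normalized counts for Col1a2 in the authors' deposited table. Of the 8, 6 were lower, with log2 changes of -5.91 ± 0.67 for the phosphatase gene Alpl, -4.90 ± 0.14 for the matrix gene Ibsp, -1.45 ± 0.09 for Col1a1, -1.34 ± 0.07 for Col1a2, -0.90 ± 0.08 for Runx2 and -0.52 ± 0.08 for Sp7 by the authors' deposited table. Spp1, osteopontin, was higher by 2.89 ± 0.08, and Bglap did not pass the test (-1.85 ± 1.08, DESeq2 adjusted p = 0.158) by the authors' deposited table. Endothelial markers reached at most 3.82 and macrophage markers 13.8 normalized counts, with 0 of 3 tested ones called, and the muscle marker Des, at 26.0, was not called in the authors' deposited table. Tubb3, a neuronal marker that other cells also express, had a log2 change of 1.16 ± 0.09 at 1649 normalized counts per the authors' deposited table. Markers without a row under their symbol, the adipocyte ones among them, were not analysed here. The part of these marker changes in the results on the members was not tested.

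Of the 48 tested genes, 10 were higher and 13 lower with Yoda1 where the DESeq2 adjusted p of the authors' deposited table was under 0.05. The 23 called genes make up 47.9% of those tested, against 44.5% of all 14653 tested genes, of which 22.4% were higher and 22.1% lower, so the share of changed genes was near the background. The median log2 fold change was -0.03 over the 48 genes and -0.01 over all tested genes in the authors' deposited table. Only 5 of the 23 differed more than 2-fold. All 4 called CaM kinases and all 3 called protein kinases C were lower, all 3 called diacylglycerol kinases and both called phospholipases A2 were higher, and phospholipases C and calpains were split.

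**Figure D1:**
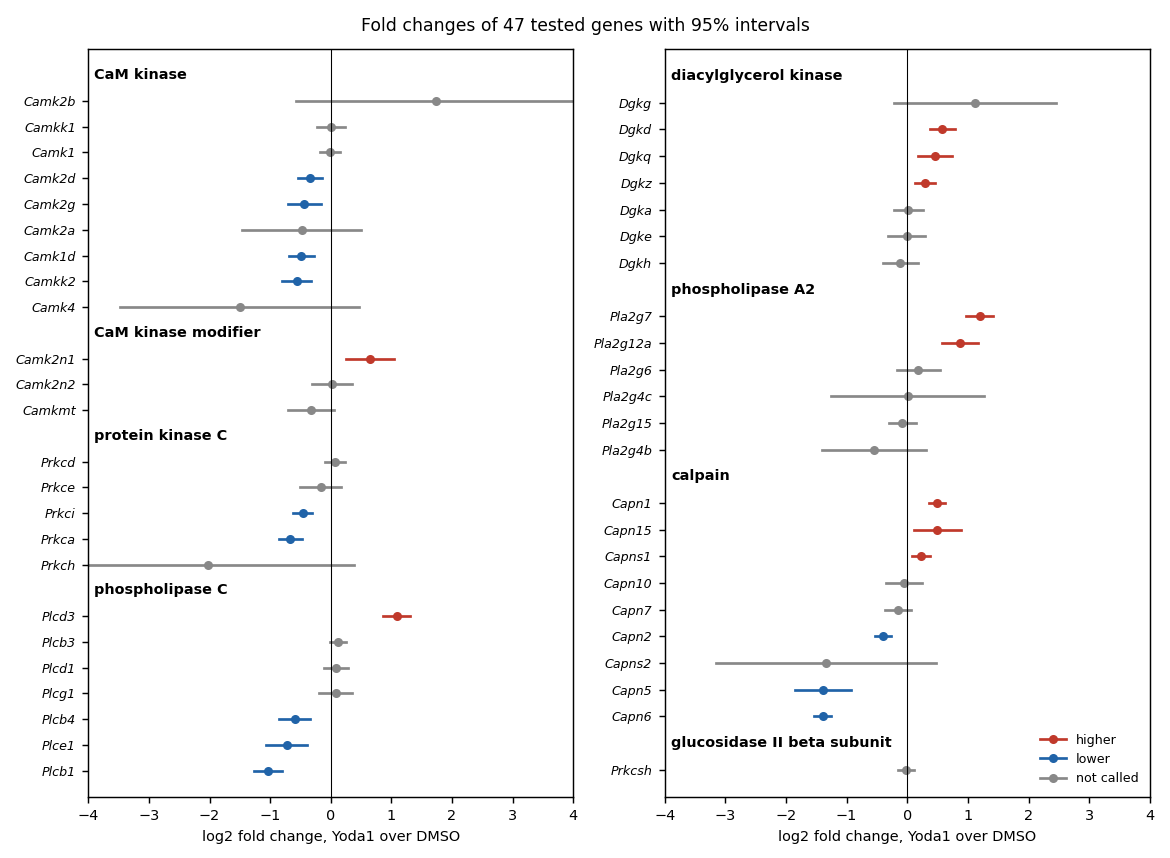
Log2 fold changes (Yoda1 over DMSO, x axis) of 47 of the 48 tested genes by family, with 95% intervals from the deposited standard errors as lines cut off at the axis limits. Points of the 10 higher genes are red, of 12 lower genes blue and of the 25 others grey, and the widest lines belong to genes with few counts such as Camk2b and Prkch.

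Among the CaM kinases, which phosphorylate transcription factors and enzymes once calcium-loaded calmodulin binds them, 4 of 9 tested genes were lower and 0 were higher. The called share of 44.4% was close to the 44.5% of all tested genes. Camkk2, a kinase that activates CaM kinases I and IV and AMPK, was 1.48-fold lower (95% interval 1.25 to 1.75) with implied group means of 1274 normalized counts in DMSO and 862 in Yoda1, derived from the authors' deposited table (DESeq2 adjusted p = 2.88e-05). Camk1d, a CaM kinase I, was 1.40-fold lower (1.22 to 1.62) according to the authors' deposited table (DESeq2 adjusted p = 1.4e-05). The falls were modest and their intervals stayed below a 2-fold change.

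The genes of the multimeric CaM kinase II present in these cells that were called were both lower. Camk2g was 1.35-fold lower (95% interval 1.12 to 1.63) and Camk2d 1.27-fold lower (1.10 to 1.46) according to the authors' deposited table (DESeq2 adjusted p = 0.00437 and 0.00288). The difference between the log2 fold changes of Camk2d and Camk2g was 0.09 with an interval of -0.24 to 0.43, so no difference between these paralogs was resolved. This pair and those below were picked with their values in view. Their intervals are not adjusted for the 14 pairs compared, so they describe these genes and test no divergence of paralogs. Camk2a and Camk2b, the forms most abundant in neurons, had log2 changes of -0.48 ± 0.50 and 1.73 ± 1.17 at means of 27.3 and 3.42 normalized counts per the authors' deposited table, and neither passed the test (DESeq2 adjusted p = 0.477 and 0.237). In contrast, Camk2n1, which encodes a small protein inhibitor of CaM kinase II, was 1.56-fold higher (1.19 to 2.06) with implied means of 110 and 172 normalized counts, derived from the authors' deposited table (DESeq2 adjusted p = 0.00446). Its paralog Camk2n2 stood at a log2 change of 0.02 ± 0.17 in the authors' deposited table, and the difference between the log2 fold changes of the inhibitor genes was 0.62 (0.11 to 1.14).

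Close relatives of the lower kinases did not pass the test. Camk1 had a log2 change of -0.01 ± 0.08 (DESeq2 adjusted p = 0.916) and Camkk1 one of 0.01 ± 0.12 (DESeq2 adjusted p = 0.98) by the authors' deposited table. The ratio of Camkk1 to Camkk2 was 1.48-fold higher with Yoda1, from a difference in log2 change of 0.57 (95% interval 0.23 to 0.91), and that of Camk1 to Camk1d was 1.39-fold higher (difference 0.48, 0.22 to 0.73). Camk4, a nuclear CaM kinase best known from lymphocytes and neurons, had an average of 4.53 normalized counts per the authors' deposited table. Camkmt, which methylates calmodulin, stood at a log2 change of -0.33 ± 0.20 (DESeq2 adjusted p = 0.176) by the authors' deposited table. As a level, Camk1 stood highest among the CaM kinases with 908 mean normalized counts per kilobase of its longest coding transcript in GENCODE M21, ahead of Camk2g with 329 and Camk2d with 240.0. With the median transcript length in place of the longest, Camk2g came first with 1482 per kilobase and Camk1 followed with 1258.

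Of 6 tested protein kinases C, 3 were lower and 0 higher (50% called, against 44.5% of all tested genes). Prkca, a conventional form that needs calcium and diacylglycerol, was 1.59-fold lower (95% interval 1.40 to 1.81), with implied means of 3714 normalized counts in DMSO and 2336 in Yoda1, derived from the authors' deposited table (DESeq2 adjusted p = 2.41e-11). Prkci, an atypical form that works in cell polarity and responds to neither, was 1.38-fold lower (1.24 to 1.54) according to the authors' deposited table (DESeq2 adjusted p = 5.24e-08). The fall was thus seen in a calcium-dependent and in a calcium-independent form, and the difference between their log2 fold changes was -0.20 (-0.45 to 0.04).

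None of the 3 tested forms of the class that responds to diacylglycerol without calcium passed the test. Prkcd, which acts in apoptosis and secretion, had a log2 change of 0.07 ± 0.08 and Prkce one of -0.16 ± 0.17 according to the authors' deposited table (DESeq2 adjusted p = 0.534 and 0.475). The log2 change of Prkca was below that of Prkcd by a difference of -0.74 (95% interval -0.99 to -0.49). Prkch was measured at an average of only 3.57 normalized counts per the authors' deposited table. As levels per kilobase of the longest coding transcript, Prkci with 493, Prkcd with 466 and Prkca with 360 mean normalized counts lay close together, while Prkce stood at 53.8. With median transcript lengths Prkci, at 3777, stood far above the others, so the order rests on the transcript assumed. Prkcsh, taken in by its name, had a log2 change of -0.02 ± 0.07 (DESeq2 adjusted p = 0.872) by the authors' deposited table.

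Phospholipases C, the source of IP3 and diacylglycerol, held 3 lower genes and 1 higher gene among 7 tested (57.1% called, against 44.5% of all tested genes). Plcb1, which G proteins of the Gq class activate, was 2.05-fold lower (95% interval 1.75 to 2.41), with implied means of 772 normalized counts in DMSO and 376 in Yoda1, derived from the authors' deposited table (DESeq2 adjusted p = 3.08e-17). Plcb4, of the same class, was 1.51-fold lower (1.26 to 1.80) according to the authors' deposited table (DESeq2 adjusted p = 2.75e-05). Plcb3, the third tested beta form, had a log2 change of 0.11 ± 0.07 (DESeq2 adjusted p = 0.168) by the authors' deposited table. The ratio of Plcb1 to Plcb3 therefore fell by a log2 difference of 1.15 (interval from -1.42 to -0.88).

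Outside the beta class, the forms also parted. Plcd3, of the delta class that is sensitive to calcium itself, was 2.12-fold higher (95% interval 1.82 to 2.46), with implied means of 332 and 705 normalized counts, derived from the authors' deposited table (DESeq2 adjusted p = 2.83e-21). Plcd1 stood at a log2 change of 0.09 ± 0.10 (DESeq2 adjusted p = 0.529) by the authors' deposited table, and the difference from Plcd3 was -1.0 (-1.29 to -0.70). Plce1, which small GTPases of the Ras family regulate, was 1.66-fold lower (1.31 to 2.10) according to the authors' deposited table (DESeq2 adjusted p = 0.000126). Plcg1, the form that receptor tyrosine kinases activate, had a log2 change of 0.08 ± 0.14 (DESeq2 adjusted p = 0.686) by the authors' deposited table. As levels per kilobase of the longest coding transcript, Plcb3 stood at 752, Plcg1 at 399 and Plcd1 at 385 mean normalized counts, while the changed forms ranged from 22.2 for Plce1 to 262 for Plcb4. With the longest transcripts the more abundant forms were thus those that did not pass the test, but with median lengths Plcb4, at 429 per kilobase, came before Plcd1 at 389.

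**Figure D2:**
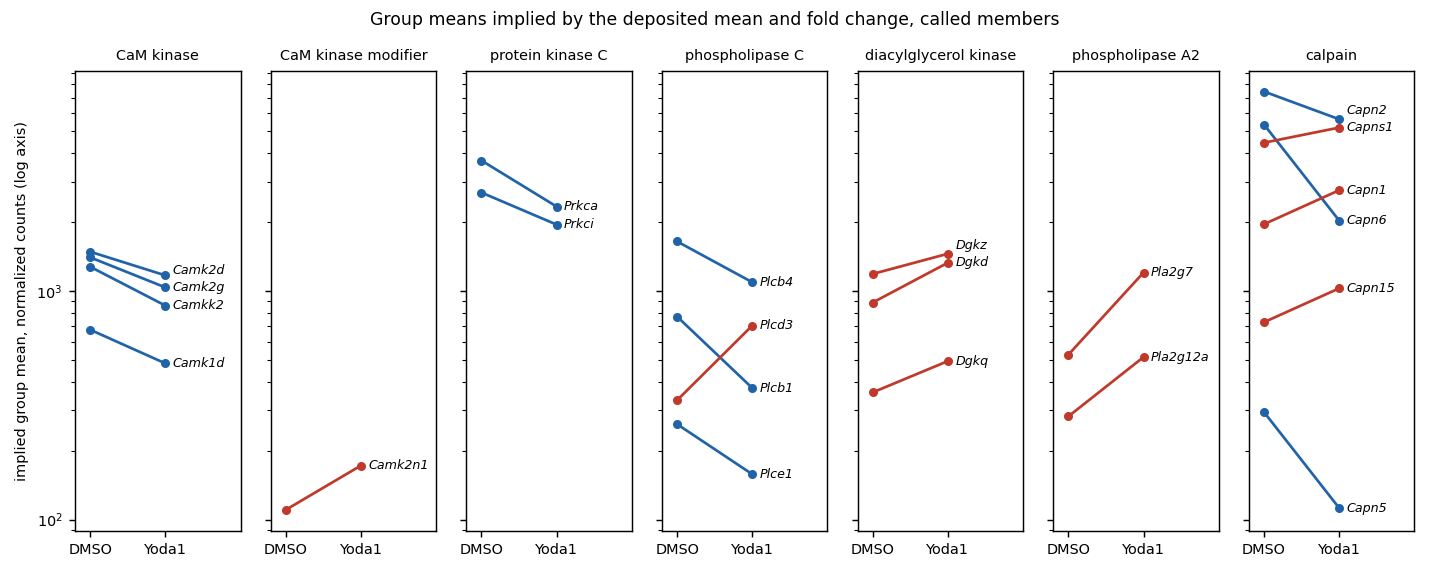
Group means in normalized counts (log axis) that the deposited mean and fold change imply for DMSO and Yoda1 with equal group sizes, 1 line for each of 22 called genes and 1 panel per family, red for higher and blue for lower. Capn6 falls from 5334 to 2027 and crosses Capns1 and Capn1, while Plcd3 and Plcb1 cross each other, and slopes compare groups within a gene since counts of different genes also depend on length.

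Diacylglycerol kinases turn diacylglycerol into phosphatidic acid, and 3 of 7 tested genes were higher while 0 were lower. That made 42.9% called, close to the 44.5% of all tested genes. Dgkd was 1.49-fold higher (95% interval 1.30 to 1.72), with implied means of 889 and 1328 normalized counts, derived from the authors' deposited table (DESeq2 adjusted p = 1.94e-07). Dgkq was 1.37-fold higher (1.12 to 1.67) and Dgkz 1.23-fold higher (1.10 to 1.37) according to the authors' deposited table (DESeq2 adjusted p = 0.00528 and 0.0012). Exons of Tmem175 on the opposite strand cover 29.1% of the exonic bases of Dgkq in GENCODE M21, and whether counting used strand is not given in the sources used here. Tmem175 itself had a log2 change of 0.24 ± 0.16 in the authors' deposited table.

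The 3 higher genes belong to kinases without a calcium-binding EF-hand pair. Of the EF-hand forms, Dgka stood at a log2 change of 0.02 ± 0.12 (DESeq2 adjusted p = 0.918) and Dgkg at 1.12 ± 0.68 (DESeq2 adjusted p = 0.182) with an average of 9.10 normalized counts per the authors' deposited table. Dgkh, which is closest in structure to Dgkd, had a log2 change of -0.12 ± 0.15 (DESeq2 adjusted p = 0.566) by the authors' deposited table, and the difference between Dgkd and Dgkh was 0.70 (95% interval 0.34 to 1.05). Dgke, which prefers arachidonate-containing diacylglycerol, stood at -0.01 ± 0.15 (DESeq2 adjusted p = 0.973) by the authors' deposited table.

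Among phospholipases A2, 2 of 6 tested genes were higher and 0 lower (33.3% called, against 44.5% of all tested genes). Pla2g7, which encodes a secreted hydrolase of platelet-activating factor and oxidised phospholipids, was 2.29-fold higher (95% interval 1.96 to 2.67), with implied means of 526 normalized counts in DMSO and 1203 in Yoda1, derived from the authors' deposited table (DESeq2 adjusted p = 1.75e-24). It had the largest rise among the called members. Pla2g12a, a secreted phospholipase A2, was 1.82-fold higher (1.48 to 2.23) according to the authors' deposited table (DESeq2 adjusted p = 9.28e-08). The lysosomal form Pla2g15 had a log2 change of -0.08 ± 0.11 and the calcium-independent form Pla2g6 one of 0.18 ± 0.18 according to the authors' deposited table (DESeq2 adjusted p = 0.606 and 0.452). The cytosolic forms Pla2g4b and Pla2g4c had means of 54.7 and 11.7 normalized counts per the authors' deposited table, and 6 further genes of this family were not tested.

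Calpains cleave cytoskeletal and signalling proteins at few sites, and 3 of 9 tested genes were higher and 3 lower. That made 66.7% called, against 44.5% of all tested genes. The ubiquitous catalytic subunits moved in opposite directions. Capn1, whose product is active at micromolar calcium, was 1.41-fold higher (95% interval 1.28 to 1.55), with implied means of 1957 and 2754 normalized counts, derived from the authors' deposited table (DESeq2 adjusted p = 2.07e-11). Capn2, whose product needs more calcium, was 1.32-fold lower (1.21 to 1.45), with implied means of 7438 and 5627, derived from the authors' deposited table (DESeq2 adjusted p = 2.52e-08). The ratio of Capn1 to Capn2 was 1.86-fold higher with Yoda1, from a difference in log2 change of 0.90 (0.70 to 1.09). Capns1, the small subunit that both share, was 1.16-fold higher (1.05 to 1.29) according to the authors' deposited table (DESeq2 adjusted p = 0.00976).

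The largest falls of all called members were in calpains that lack the EF-hand domain of the classical forms. Capn6, whose product lacks the catalytic cysteine and binds microtubules, was 2.63-fold lower (95% interval 2.39 to 2.90), with implied means of 5334 normalized counts in DMSO and 2027 in Yoda1, derived from the authors' deposited table (DESeq2 adjusted p = 7.72e-85). Capn5 was likewise 2.63-fold lower (1.90 to 3.62) at an average of 203 normalized counts per the authors' deposited table (DESeq2 adjusted p = 3.09e-08). A larger absolute log2 fold change than that of Capn6 was listed for 9.21% of all tested genes in the authors' deposited table. Capn15, which has zinc fingers, was 1.41-fold higher (1.08 to 1.84) according to the authors' deposited table (DESeq2 adjusted p = 0.0304), and Capn10 and Capn7 stood at log2 fold changes of -0.05 ± 0.15 and -0.16 ± 0.11 with DESeq2 adjusted p = 0.823 and 0.244. Per kilobase of the longest coding transcript, Capns1 had a level of 3006 mean normalized counts, Capn2 2026, Capn6 1034 and Capn1 770, while Capn5 stood at 45.2. With the median transcript length Capn1, at 1603 per kilobase, came before Capn6. An antisense gene, Gm10814, covers 11.8% of the exonic bases of Capn1 in GENCODE M21 and had an average of 4.09 normalized counts per the authors' deposited table. Antisense genes not analysed here cover more of Capn2 (Gm37885, 27.1%) and Capn15 (D630044L22Rik, 19.3%) and less of Capns1 (Gm26810, 8.16%). Reads of either strand could thus enter these counts if strand was not used. Capns2, a second small subunit, was at 5.42 per the authors' deposited table.

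**Figure D3:**
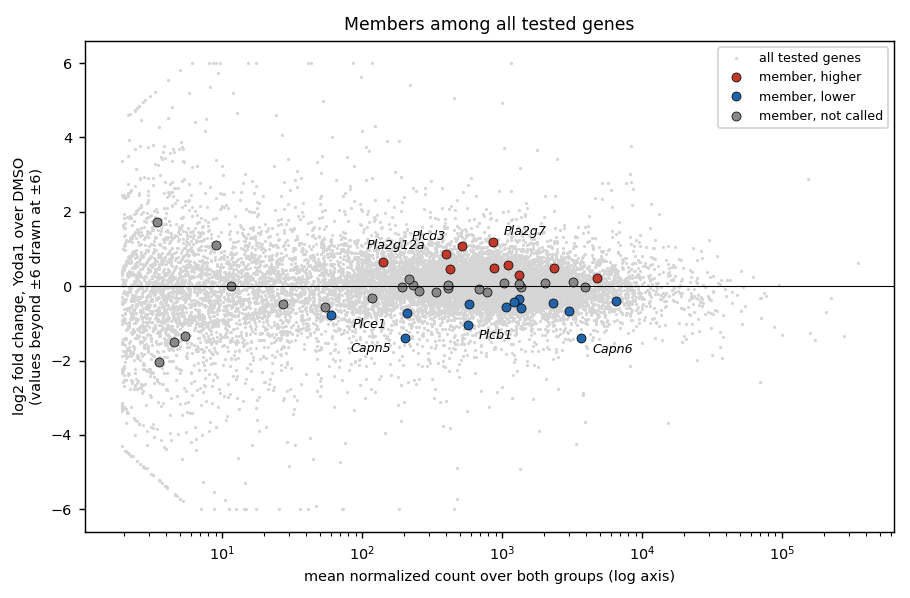
Log2 fold change (y axis, Yoda1 over DMSO) against mean normalized count (x axis, log scale) for all 14653 tested genes in light grey, with the tested members on top in red (higher), blue (lower) or dark grey (not called). Capn6 stands out as a fall at a high mean of 3681 normalized counts, and most members lie within the body of the cloud.

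Many members had few counts. The 18 untested members had means between 0.152 and 1.48 normalized counts per the authors' deposited table, where no adjusted p was given. They were Camk1g, Prkcb, the phospholipases C Plcb2, Plcd4, Plch1 and Plch2, the diacylglycerol kinases Dgki and Dgkk, the calpains Capn3, Capn9, Capn12 and Capn13, and the phospholipases A2 Pla2g1b, Pla2g2e, Pla2g3, Pla2g4e, Pla2g4f and Pla2g5. Of the 9 tested members with a mean under 100 normalized counts, 1 was called (11.1%), against 17.2% of the 4486 tested genes at such means in the authors' deposited table. Of the 39 with an average of 100 or more, 22 were called (56.4%), against 56.5% of the 10167 tested genes at such means in the authors' deposited table. Of 26 tested members set down as directly dependent on calcium or calcium-loaded calmodulin, 4 were higher and 10 lower (53.8% called). Among the 22 others 6 were higher and 3 lower (40.9% called). Over all tested genes 44.5% were called, 22.4% higher and 22.1% lower. The non-classical calpains, Capn5 and Capn6 among them, and Prkcsh were counted with the others, and a different assignment would change these counts. That grouping was made after the values were seen, and the difference between the groups was not tested.

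The spread between libraries enters through the standard error. Over the 39 members with an average of 100 or more, the median standard error was 0.118 on the log2 scale, against 0.116 for all tested genes at such means in the authors' deposited table. Capn15 had a standard error of 0.20 where tested genes within 1.5-fold of its mean had a median of 0.11, and 98.5% of those genes had a smaller one in the authors' deposited table. For Plcg1 that share was 94.2%, for Capn5 91.6% and for Camk2g 90.6%, whereas it was 4.75% for Capn1 in the authors' deposited table. Capn15 and Plcg1 were thus measured with less agreement between libraries than most genes of their level.

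**Figure D4:**
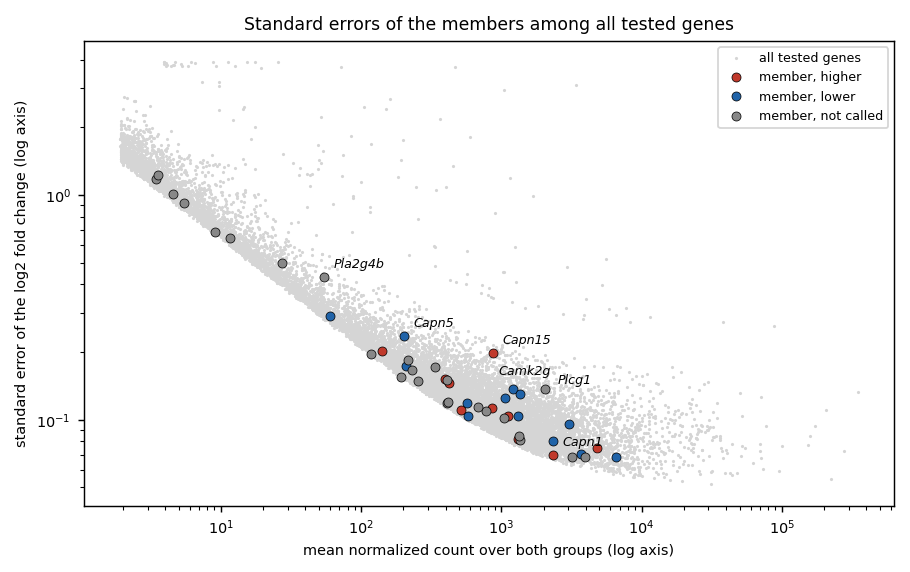
Standard error of the log2 fold change (y axis, log scale) against mean normalized count (x axis, log scale) for all tested genes in light grey and the members in red (higher), blue (lower) or dark grey (not called). Capn15, with 0.20, lies at the upper edge of the cloud at its mean and Capn1, with 0.07, at the lower edge.

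Several smaller changes depended on the reference distribution. Under a t distribution with 4 degrees of freedom, which would follow from 3 against 3 libraries, 5 members were higher and 7 lower. That was 25% of the tested members, against a background of 20.4% of all tested genes. The members that kept their call were Pla2g7, Plcd3, Pla2g12a, Capn1 and Dgkd on the higher side and Capn6, Plcb1, Prkca, Capn2, Capn5, Prkci and Camk1d on the lower. The 11 that lost it included Camkk2, Camk2d, Camk2g, Camk2n1, Plcb4, Plce1, Dgkq, Dgkz, Capn15 and Capns1, with adjusted p between 0.0508 and 0.162 on that distribution (range of these 11 genes over all alternatives 5.98e-06 to 1). Adding the authors' size limit, 0.5 on the log2 scale in either direction, kept 13 of the 23. These made up 27.1% of the 48 tested members, against 27.1% of all tested genes in the authors' deposited table. When a change of 0.5 on the log2 scale was the null, 10.4% of the tested members and 9.51% of all tested genes passed. The 5 members were Capn6, Capn5, Plcb1, Plcd3 and Pla2g7. With centring to equal total counts in both groups, a shift of -0.11 was subtracted on the log2 scale and the background became 45.3% called, 28.2% higher and 17.1% lower. No called member changed direction under that centring, and Plcb3 joined the higher ones, which made 11 higher and 13 lower.

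Around these families, genes of the same pathway outside them were counted from lists that were written with earlier results of these data known, and no list was tested. Each count stands beside a background of 44.5% of all tested genes called, 22.4% higher and 22.1% lower. Of 4 calmodulin genes, 3 were lower: Calm3 was 1.58-fold lower (95% interval 1.45 to 1.73), Calm2 1.27-fold (1.06 to 1.52) and the calmodulin-like gene Calml4 3.64-fold (1.85 to 7.16) according to the authors' deposited table (DESeq2 adjusted p = 3.01e-23, 0.0207 and 0.000649). Of 8 other tested kinases that calmodulin regulates or that are related to the CaM kinases, 4 were lower and 1 higher. Dclk1, a microtubule-binding kinase related to the CaM kinases, was 3.22-fold lower (2.84 to 3.65), Mylk, the myosin light chain kinase, 2.54-fold lower (2.22 to 2.91) and the membrane scaffold Cask 1.73-fold lower (1.55 to 1.93) according to the authors' deposited table, while Dapk2 was 4.27-fold higher (2.07 to 8.81) at an average of 17.8 normalized counts.

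Of 15 genes for CaM kinase targets and the phosphatases that oppose them, 4 were higher and 6 lower. The transcription factor genes Creb1 (1.37-fold, 95% interval 1.19 to 1.59) and Atf1 (1.43-fold, 1.23 to 1.66) were lower, and Hdac9, a histone deacetylase that CaM kinases move out of the nucleus, was 5.65-fold higher (2.39 to 13.4) at an average of 16.9 normalized counts per the authors' deposited table. Ppm1f, a phosphatase that removes the activating phosphate of CaM kinases, was 1.52-fold higher (1.33 to 1.74) according to the authors' deposited table, with a DESeq2 adjusted p of 1.68e-08. Of 7 tested protein kinase C substrates and scaffolds, 3 were lower and 1 higher, the scaffold gene Pick1 with 1.34-fold (1.07 to 1.69) by the authors' deposited table. Marcks, a membrane-bound substrate that holds PIP2, was 2.82-fold lower (2.62 to 3.04) at an average of 19346 normalized counts per the authors' deposited table (DESeq2 adjusted p = 7.4e-169). Akap12, a scaffold of protein kinases, was 2.31-fold lower (1.62 to 3.30) and Cavin3, a caveolar protein that binds protein kinase C delta, 1.72-fold lower (1.51 to 1.95) according to the authors' deposited table.

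Upstream of phospholipase C only 4 Gq-class genes were listed, of which 2 were tested. Lists downstream of it held genes called in both directions. Neither of the tested Gq-class genes was called, with log2 fold changes of 0.04 ± 0.08 for Gnaq and 0.11 ± 0.09 for Gna11 by the authors' deposited table. Among 14 tested genes of phosphoinositide resynthesis, 6 were higher and 2 lower. The lipid transfer protein gene Pitpna was 1.51-fold higher (95% interval 1.39 to 1.64) and the kinase gene Pi4k2a 1.48-fold higher (1.32 to 1.65) according to the authors' deposited table. The kinase genes Pip4k2b and Pi4ka were 1.42-fold (1.27 to 1.57) and 1.37-fold lower (1.22 to 1.55) according to the authors' deposited table. Of 11 genes of IP3 receptors and IP3 metabolism, 2 were higher and 4 lower. Inpp5a, which removes a phosphate from IP3, was 1.68-fold higher (1.51 to 1.87) and Inpp1, a phosphatase later in the same route, 1.64-fold lower (1.34 to 1.99) according to the authors' deposited table. Itpr3, an IP3 receptor, was 1.41-fold higher (1.29 to 1.54) and Ahcyl1, whose product binds IP3 receptors, 1.25-fold lower (1.14 to 1.37) according to the authors' deposited table. The list had a median log2 change of -0.03 and that of resynthesis 0.16, beside -0.01 for all tested genes in the authors' deposited table.

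Genes for other proteins that respond to diacylglycerol changed in both directions, while both diacylglycerol lipase genes were higher. Of 6 tested effectors, 2 were higher and 2 lower, and Rasgrp3, an activator of Ras that diacylglycerol recruits, was 4.08-fold higher (95% interval 2.89 to 5.76) at an average of 110 normalized counts per the authors' deposited table. Chn1, a GTPase-activating protein that binds diacylglycerol, was 2.32-fold lower (1.55 to 3.46) according to the authors' deposited table. Prkd1, a protein kinase D, was 2.13-fold higher (1.43 to 3.19) and its relative Prkd3 1.17-fold lower (1.06 to 1.30) according to the authors' deposited table. Of 16 tested other phospholipases and lipases, 5 were higher and 5 lower. The diacylglycerol lipase genes Dagla and Daglb were 1.91-fold (1.64 to 2.23) and 1.48-fold higher (1.24 to 1.76) according to the authors' deposited table. Lypla1, a lysophospholipase, was 1.32-fold lower (1.18 to 1.48) and Pld3, of the phospholipase D family, 1.38-fold lower (1.18 to 1.60) according to the authors' deposited table. Of 8 genes for the calpain inhibitor and known substrates, 2 were higher and 4 lower. The spectrin gene Sptan1 was 1.42-fold lower (1.29 to 1.56), the talin gene Tln2 1.34-fold (1.18 to 1.51) and Ezr, which links membrane and actin, 1.51-fold (1.23 to 1.85) according to the authors' deposited table. The filamin gene Flna and the focal adhesion kinase gene Ptk2 were 1.31-fold (1.15 to 1.48) and 1.29-fold higher (1.14 to 1.46) according to the authors' deposited table. Cast, the calpain inhibitor calpastatin, had a log2 change of 0.17 ± 0.08 (DESeq2 adjusted p = 0.0571) by the authors' deposited table.

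**Figure D5:**
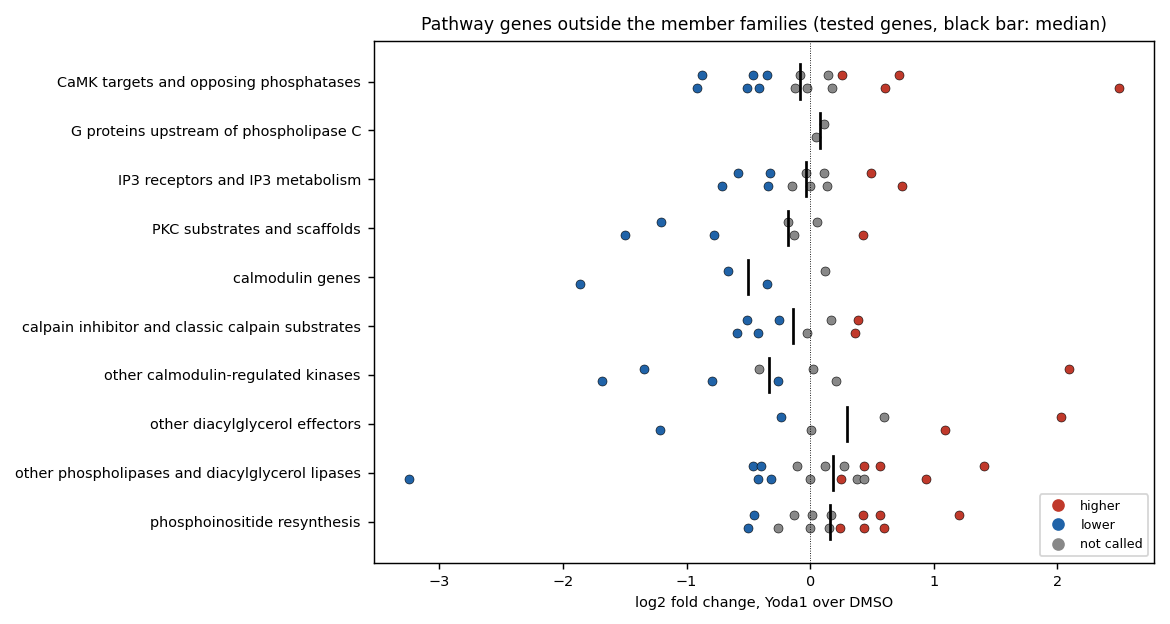
Log2 fold changes (Yoda1 over DMSO, x axis) of the tested genes of 10 pathway lists outside the member families, 1 row per list and 1 point per gene, red for higher, blue for lower and grey for not called, with a black bar at each list's median. Points lie on both sides of 0 in every list but that of the G proteins, whose 2 genes were not called.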

How the data were processed

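RNA-seq of MC3T3-E1 cells was used as 1 table of the authors' own comparison. Per the submitters' processing notes the tools were Salmon and DESeq2 with build GRCm39, versions unnamed, and annotation and filters are not given. The mean normalized count is a signal the authors averaged over their libraries, per the file headers. Each log2 fold change was deposited with a standard error. The Wald statistic is a deposited score, and a recomputation of it, of the deposited p-value and of the Benjamini-Hochberg adjusted p differed in 0 rows beyond a relative tolerance of 1e-06.

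The families whose symbols make up the members, and the pathway lists, were chosen with earlier results of these data known. Calls use the authors' DESeq2 adjusted p under 0.05 over all 14653 tested genes. Intervals of 95% use the deposited standard error and the normal distribution. Differences between 2 genes treat their errors as independent, since the covariance cannot be had, and cover 14 pairs picked as close relatives with their values in view. Implied group means assume equal group sizes. The counts per kilobase use coding transcripts of GENCODE M21. Every called member but 1 is named, and of each pathway list up to 4 called genes with the smallest adjusted p, or all called in a direction with 5 or fewer. Some single-gene results are not reported here, though their genes stay in the counts. The uncalled list genes Cast, Gnaq and Gna11 were named after their values were seen. Single libraries' depth is unknown here. Over all rows the mean counts add up to 19849773 normalized counts. The recomputed tests that use the normal distribution were checked on simulated data. Their noise was drawn from the deposited standard errors, so that check cannot show whether these errors are right. The t distribution was not part of it. Python 3.11.15, pandas 2.3.3 and SciPy 1.17.1 were used.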

Additional observations from a re-analysis of the deposited data

How the results depend on the processing

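The counts of 10 higher and 13 lower members held with no filter, with a filter at an average of 9.60 and with median centring, and were 11 and 13 with equal summed counts. They were 5 and 7 under t tails with 4 degrees of freedom, 5 and 8 with a minimum absolute log2 change of 0.5, 2 and 3 with a minimum of 1, and 2 and 3 in a test against 0.5. The lower counts follow from the heavier tails of the t distribution and from the stricter fold limits. Over 379 single-gene values under these alternatives, 321 stayed on their side of the threshold, 57 lost a call and 1 gained one, and 0 changed direction while called. No paired analysis was possible because the table holds no values per library, and leaving out replicates was not run for the same reason. Members with few counts had wide errors, up to a standard error of 1.23 on the log2 scale at a mean of 3.57.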
